A study of Mus musculus with 4 samples.

Results

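The cytosolic ribosomal protein genes were followed through lens RNA of transgenic C57BL/6 mice. Members were the listed symbols that start with Rpl or Rps and go on with a number, and Rplp0, Rplp1, Rplp2 and Rpsa, without the Rps6k kinases and the pseudogenes; a symbol on several rows was read from the row of highest mean level. This gave 82 genes of 21384 symbols, 32 of the small (40S) and 50 of the large (60S) subunit. Of these, 8 are named as paralogs of another member, and the other 74 are called core members. Both groups of mice carry an alpha A crystallin transgene: CRYAAN101D mice make the deamidated form N101D, in which aspartate stands for the asparagine, and CRYAAWT mice make the unmodified protein. The genotypes are called N101D and WT here. Lenses were taken at 2 and at 4 months, with 1 library for each genotype and age and 4 libraries in all. The labels give no promoter for the transgenes, no number of animals or lenses in a library and no sex, and both groups compared carry a transgene. The lens label held in the data: 6 of the 7 fiber markers were read, none at 0, and summed to 72299 to 126090 FPKM over the libraries. Of these sums, Cryaa, which like the transgenes encodes alpha A crystallin, read 41937 to 68167 FPKM. Lim2 and Bfsp1, which are not crystallins, read 2719 to 3910 and 1797 to 2957 FPKM. The 5 epithelial markers summed to 109 to 165.2 FPKM, of which Gja1 read 46.3 to 106.

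Ribosomal proteins coat the ribosomal RNA in a fixed ratio, and the genes for them are active in every growing cell. Their mRNAs start with a run of pyrimidines, the 5' terminal oligopyrimidine or TOP tract, which ties their translation to the mTOR pathway. In the lens, protein is made in the epithelium and in young fiber cells, whereas mature fibers lose their nuclei and organelles and carry crystallins for life.

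Where 2 levels are given for an age, N101D stands first and WT second. Crystallins took 67.0% and 71.4% of the summed level of all named genes at 2 months, and 55.2% and 59.8% at 4 months. Levels are the FPKM that the authors deposited, which count fragments per length of transcript and per depth of the library. Depth read back from the steps between low FPKM values was about 24.4 M fragments in N101D at 2 months, 49.8 M in WT at 2 months and 34.95 M in WT at 4 months. For N101D at 4 months the steps gave 53.1 M, but only 43.1% of the values came within 0.05 of a whole read there, against 83.0% to 85.3% in the other libraries. At 24.4 M fragments, 1 FPKM over 1 kb is 24.4 reads, with an exact Poisson 95% interval of 15.7 to 36.2, which covers counting error only. Differences are of log2(FPKM + 1), N101D minus WT unless said otherwise, over genes that reach 1 FPKM in at least 1 library; 80 of the 82 genes do, and Rpl10l and Rpl3l do not. With 1 library a group no difference within an age has a replicate check, and the members' counts are set beside the same counts over all genes.

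All 74 core members were read in every library, and their levels spanned a wide range. The median core level was 66.5 and 58.1 FPKM at 2 months, and 61.5 and 83.5 at 4 months. The WT library of 4 months held the highest median, and the WT library of 2 months the lowest. Summed over all members the levels were 10656 and 8991 FPKM at 2 months, and 9878 and 12438 at 4 months. As a share of all named genes other than crystallins, these sums were 4.04% and 4.74% at 2 months, and 5.22% and 6.69% at 4 months. On that share N101D stood below WT at both ages, whereas on the summed FPKM it stood above WT at 2 months. In bulk lens RNA, fewer cells of a type and less RNA per cell cannot be told apart.

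**Figure D1:**
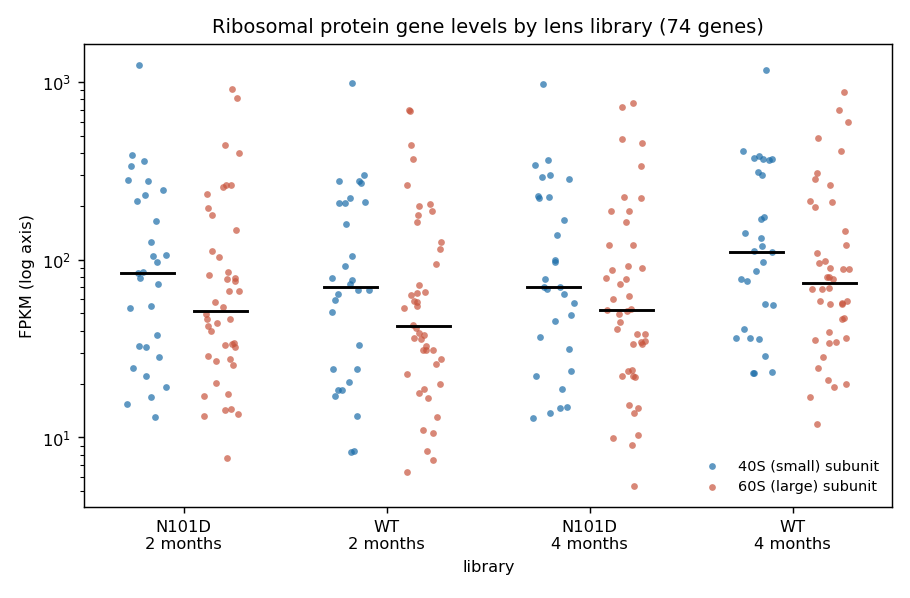
FPKM (log axis) of the 74 core ribosomal protein genes in each of the 4 lens libraries, 1 point a gene; the black bars are the medians of the 30 core 40S and the 44 core 60S genes. Both medians are highest in WT at 4 months, at 111 FPKM for the 40S and 73.7 FPKM for the 60S genes.

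The genes kept nearly the same order in every library. Over the 74 core members the Spearman correlation of levels between 2 libraries was between 0.956 and 0.989, a description of points that share their library and depth. The 5 genes of highest mean level took 30.8% to 35.9% of the summed level in each library. Rps3, a 40S head protein that also lines the entry of the mRNA, read 1249.8 and 988 FPKM at 2 months, and 972 and 1179 at 4 months. Rplp1, an acidic protein of the stalk that recruits translation factors, read 922 and 696 FPKM at 2 months and 762 and 876 at 4 months. At 4 months both were lower in N101D; at 2 months both were higher on the deposited scale and lower when libraries were scaled to equal totals of named genes other than crystallins. Rpl41, a very short basic peptide, read 816 and 690.3 FPKM at 2 months and 452 and 596 at 4 months. Rpl8, a protein next to the peptidyl transferase centre, read 441 and 440.5 FPKM at 2 months and 722 and 697 at 4 months. On the deposited scale Rpl8 thus stood level between the genotypes at both ages and higher at 4 months in both, and Rpl41 stood lower at 4 months in both. Rplp0, the base of the stalk, was the fifth in rank, with 398 and 372 FPKM at 2 months and 481 and 488 at 4 months.

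At the other end stood Rpl21 among the core members, with 7.61 and 6.38 FPKM at 2 months, and 5.31 and 11.8 at 4 months. The paralogs Rpl10l, Rpl3l, Rpl39l and Rpl7l1 stood lower still on mean level. The highest core level was 99.5 to 183 times the lowest within a library, with the smallest ratio in WT at 4 months. Many ribosomal protein genes have processed pseudogene copies, and how reads that fit several places were shared out is not given in the sources used here, so a gap between 2 members can also lie in the counting. Of the 82 members, 31 stand on a listed span that holds another symbol too. Rpl17 and Rpl30 are listed in joint entries with a neighbour and are not members; those entries differed by +0.21 and +0.49 at 2 months and by -0.35 and -0.94 at 4 months.

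At 2 months the members were mostly a little higher in N101D on the deposited scale and lower once crystallins were set apart, though higher than genes at large either way. On the deposited scale the median difference was +0.25 on the log2 scale, and 70 of the 80 members were above 0, beside 35.6% of all genes, and 10 were below 0, beside 64.3%; the median over all genes was -0.09. At least 0.5 higher were 11 members, beside 2.27% of all genes, and no member was that much lower, beside 10.5%. At least 2-fold higher were 2 members, beside 0.407% of all genes, and none was 2-fold lower, beside 3.63%. Of the 2, Rpl39l reached 1 FPKM only in N101D at 2 months, so the filter fixed its difference, which leaves Rps29 as the 1 member to read. Rps29, a zinc-binding protein of the 40S head (listed at mm9 chr12:70258708-70260173), read 19.3 FPKM in N101D and 8.25 in WT, a difference of +1.13. That difference was under 2-fold when libraries were scaled to equal totals of named genes other than crystallins. The next were Rpl12, a protein at the foot of the stalk, at +0.78, the paralog Rpl22l1 at +0.74 and X-linked Rpl36a at +0.70. The members that were lowest in N101D at 2 months were Rps4y2 at -0.14, Rpl10a and Rps13 at -0.12, Rplp2 at -0.11 and Rps6 at -0.11. None of these 5 was more than 0.14 below WT. With each library scaled to equal totals of named genes other than crystallins, 13 members were above 0 at 2 months. Below 0 were 67 (83.75%), beside 95.5% of all genes. The members' median was then -0.20, while that of all genes was -0.46. Above the median of all genes stood 75 of the 80 members as deposited and 68 under that scaling. Every sign given for 2 months below is that of the deposited scale, on which all genes lie at -0.09.

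At 4 months the members were mostly lower in N101D, under the deposited and 3 other scalings. The median difference was -0.45, and 74 of the 80 members were below 0, beside 44.7% of all genes, and 6 were above 0, beside 55.3%; the median over all genes was +0.03. At least 0.5 lower were 36 members, beside 2.31% of all genes, and none was that much higher, beside 3.22%. At least 2-fold lower were 2 members, Rpl34 and Rpl21, beside 0.284% of all genes, and none was 2-fold higher, beside 0.337%. Rpl34, a protein of the large subunit (listed at mm9 chr3:130415359-130433398), read 52.3 FPKM in N101D and 109 in WT, a difference of -1.04. Its listed span holds another symbol. A joint entry of Rpl34 and the pseudogene Rpl34-ps1, which is not a member, differed by +1.03 at 2 months and -0.98 at 4 months. Rpl21, of the large subunit as well (listed at mm9 chr5:147644465-147648608), differed by -1.03. Rpl12 at -0.95, Rps7 at -0.93 and Rpl10a at -0.90 came next, and Rps29 was sixth with 14.9 FPKM in N101D and 28.6 in WT. Rps7, a 40S protein needed to process the small subunit's rRNA, read 32.5 and 20.4 FPKM at 2 months and 18.7 and 36.4 at 4 months, so the genotypes exchanged their order. The 5 highest differences at 4 months were those of the paralogs Rps4y2 at +0.43 and Rpl39l at +0.06, of Rpl8 at +0.05, and of Rpl7a and Rpl7l1 at +0.01 and +0.00. Rpl29, Rplp0, Rpsa and Rps9 followed at +0.00, -0.02, -0.06 and -0.08, so that a few abundant members stood level with WT. Markers of photoreceptors moved with this difference: the summed level of Sag, Nrl, Pde6b and Gnat1, none of them at 0 in any library, was 363 FPKM in WT at 4 months and 184 to 213 in the other 3 libraries. Their part in the result was not tested.

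**Figure D2:**
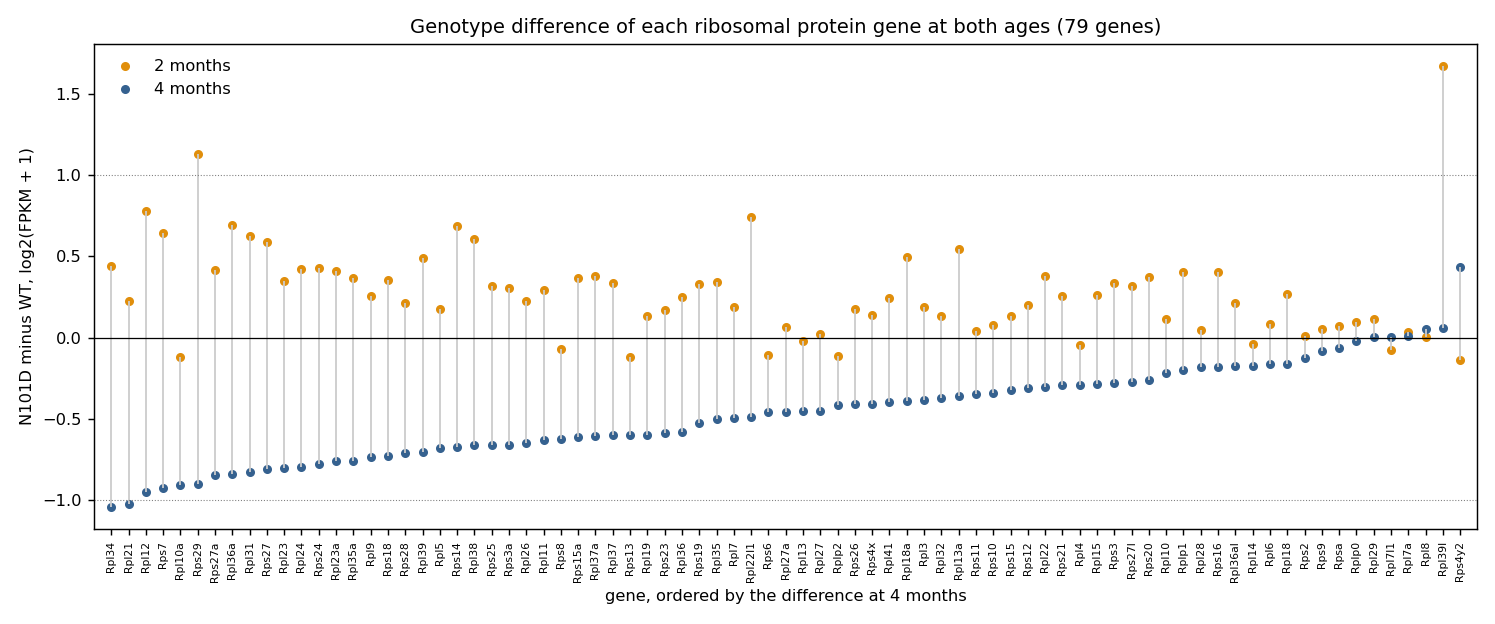
Difference N101D minus WT of log2(FPKM + 1) for 79 of the 80 ribosomal protein genes that reach 1 FPKM, at 2 months (orange) and at 4 months (blue), ordered by the difference at 4 months; each grey line joins the 2 ages of a gene and the dotted lines mark 2-fold. On this deposited scale 69 of the genes drawn lie above 0 at 2 months, a direction that turns round for the members' median when libraries are scaled to equal totals without crystallins, and 73 lie below 0 at 4 months.

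The 2 ages gave opposite orders of the genotypes for most members on the deposited scale. Of the 80 members, 66 (82.5%) were higher in N101D at 2 months and lower at 4 months, beside 21.6% of all 11264 genes read at both ages. Both differences reached 0.5 in those directions for 8 members and for 42 of all genes. Counted against the median of all genes at each age in place of 0, 73 of the 80 members were above it at 2 months and below it at 4 months, beside 31.2% of all genes. Under the 3 other scalings this count was 67 with equal totals without crystallins, 57 with quantile normalization and 74 with equal upper quartiles, beside 29.9%, 30.3% and 31.4% of all genes. Counted against 0 with equal totals without crystallins, it was 12 of 80, beside 2.68%. The 2 comparisons have no library in common. Across the 80 members, a larger difference at 2 months went with a lower one at 4 months (Spearman -0.48, and -0.34 over all 11264 genes). These are descriptions over genes of the same 4 libraries. The 16 crystallin genes turned the same way on the deposited scale, with 12 above 0 at 2 months and 15 below 0 at 4 months and median differences of +0.21 and -0.35, so the turn was not seen in the members alone. Unlike the members, all 16 crystallins were lower at 4 months than at 2 months in WT.

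Across all 4 libraries on the deposited scale, 61 of the 74 core members had their highest level in WT at 4 months. None had it in WT at 2 months, and 44 had their lowest level there. Over all genes, 22.1% were highest in WT at 4 months, 24.4% were highest in WT at 2 months and 15.8% were lowest there. With equal totals without crystallins, 8 core members were lowest in WT at 2 months and 50 in N101D at 2 months. The shares of all genes were then 2.49% and 86.9%. Lowest in WT at 2 months were 41 core members with quantile normalization and 48 with equal upper quartiles. When the libraries were scaled in the 3 other ways, 55 to 72 core members were highest in WT at 4 months and none was lowest there. By their status codes the ages look separately estimated, so levels across ages may rest on tables made apart.

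Between the ages, WT levels were higher at 4 months for 76 of the 80 members, beside 48.4% of all genes, with a median difference of +0.65, 4 minus 2 months. At least 2-fold higher were 10 members, beside 0.675% of all genes, and 50 members were at least 0.5 higher, beside 5.92% of all genes. No member was 2-fold lower, beside 0.479% of all genes, and none was 0.5 lower, beside 4.06%; the 4 members below 0 stood beside 51.6%. In N101D the median was -0.12, or +0.36 with equal totals without crystallins against +0.51 for all genes, with 47 members lower at 4 months, beside 35.3% of all genes, and 33 higher, beside 64.6%, while all genes had a median of +0.15. Scaled to equal totals without crystallins, 20 members were lower, beside 9.54% of all genes, and 60 were higher, 5 of them at least 2-fold. At least 0.5 lower in N101D were 19 members, beside 6.4% of all genes, and 6 were that much higher, beside 20.3%. On the deposited scale 2 members were at least 2-fold lower, beside 1.1% of all genes, and none was 2-fold higher, beside 5.21%. Of the 2, Rpl39l had its difference fixed by the filter in the same way, which leaves Rpl39 as the 1 member to read. These comparisons share libraries with those between genotypes and are not independent of them. Blood moved in the opposite direction between the WT libraries. The 3 hemoglobin markers, none at 0, summed to 86.9 and 236 FPKM at 2 months and to 84.0 and 31.6 at 4 months. These markers were highest in WT at 2 months and lowest in WT at 4 months. Their part in the members' differences was not tested.

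At 4 months the less abundant members differed more than the abundant ones. Across the 74 core members the difference at 4 months went with the mean log2 level in the 2-month libraries, which do not enter it (Spearman 0.56), while over all 11264 genes the same measure was -0.26. For the 18 core members with a mean level up to 30 FPKM the median difference was +0.39 at 2 months and -0.80 at 4 months. For the 25 above 100 FPKM it was +0.14 and -0.32. These limits of 30 and 100 FPKM were chosen after the values were seen.

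The medians of the 2 subunits lay close to each other. The 30 core members of the 40S subunit had a median difference of +0.28 at 2 months and -0.49 at 4 months, with 27 above 0 at 2 months and all 30 below 0 at 4 months, 27 of them under quantile normalization. The 44 core members of the 60S subunit had median differences of +0.25 and -0.47, with 39 above 0 and 41 below 0. Against the median of all genes, 26 of the 30 and 38 of the 44 stood higher at 2 months with equal totals without crystallins. The 3 members of the 60S subunit that were not below 0 at 4 months were Rpl8, Rpl7a and Rpl29.

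Within the 40S subunit, the head turns as mRNA and tRNA move through the ribosome. All 13 head proteins listed for themselves were above 0 at 2 months and below 0 at 4 months, with median differences of +0.34 and -0.41; with equal totals without crystallins 1 was above 0 at 2 months, and all 13 were above the median of all genes. Rps29 was the most different of them, and Rps27a, which is made as a fusion with ubiquitin, came next at 4 months. Rps27a read 32.7 and 24.3 FPKM at 2 months and 22.3 and 40.9 at 4 months. Rps18 read 387 and 302 FPKM at 2 months and 224 and 371 at 4 months, differences of +0.36 and -0.73. Rps18 is a head protein at the contact with the large subunit. Rps28 read 15.4 and 13.1 FPKM at 2 months and 13.7 and 23.0 at 4 months. Rps25, which many viral internal entry sites need, read 83.9 and 67.2 FPKM at 2 months and 48.6 and 77.5 at 4 months. Of the other head proteins, these differed less at 4 months: Rps19, which is mutated in human Diamond-Blackfan anemia, by -0.53, Rps10 by -0.34 and Rps15 by -0.32, and Rps12, Rps20 and Rps16 by -0.31, -0.26 and -0.18.

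Within the 60S subunit, 3 functional sites were followed. The stalk, which recruits elongation factors, held both a member of nearly equal level, Rplp0, and one of the most different, Rpl12. Rpl12 read 13.6 and 7.51 FPKM at 2 months, and 9.89 and 20.03 at 4 months, on a listed span that 2 other symbols share. Rplp2 read 33.5 and 36.3 FPKM at 2 months and 60.1 and 80.4 at 4 months. The 4 stalk genes had median differences of +0.25 and -0.31.

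Rpl5 and Rpl11 bind 5S rRNA together and, outside the ribosome, hold back Mdm2, the ligase that targets p53. Rpl5 read 42.5 and 37.5 FPKM at 2 months and 35.0 and 56.6 at 4 months. Rpl11 read 78.3 and 63.7 FPKM at 2 months and 51.7 and 80.4 at 4 months. Both were higher in N101D at 2 months and lower by 0.6 or more at 4 months, with differences of -0.68 and -0.63. Mdm2 itself read 13.8 and 14.3 FPKM at 2 months and 12.5 and 14.2 at 4 months, differences of -0.05 and -0.17. Of the listed p53 pathway genes that passed the filter, Mdm4 and Trp53 were the most different at 4 months. Mdm4 differed by -0.50 at 2 months and +0.80 at 4 months, with 3.79 and 5.78 FPKM and then 9.91 and 5.25 FPKM. Trp53 read 4.89 and 4.92 FPKM at 2 months and 7.72 and 4.06 at 4 months, a difference of +0.79 at 4 months.

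The proteins around the mouth of the exit tunnel are where the nascent chain meets targeting factors and chaperones. All 8 of them were below 0 at 4 months, with a median of -0.62, and 7 were above 0 at 2 months, with a median of +0.36. Rpl31 read 17.6 and 11.1 FPKM at 2 months and 10.4 and 19.2 at 4 months. Rpl39, which lines the tunnel, read 263 and 187 FPKM at 2 months and 121 and 197 at 4 months, differences of +0.49 and -0.70. Rpl26 read 148 and 126 FPKM at 2 months and 92.8 and 146 at 4 months. A second row of Rpl26 on the same span, left out of these values, read 123 and 89.2 FPKM and then 62.5 and 119. Rpl26 and Rpl39 were the most abundant of the site after Rpl4, which reaches into the tunnel and read 256 and 264 FPKM and then 336 and 411. Rpl23a and Rpl35, both at the docking place of the signal recognition particle, differed by -0.76 and -0.50 at 4 months. Rpl19 and Rpl22 differed by -0.60 and -0.31.

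The 4 X-linked members, Rpl10, Rpl36a, Rpl39 and Rps4x, were above 0 at 2 months and below 0 at 4 months, with medians of +0.31 and -0.56 against +0.25 and -0.48 for the 70 autosomal core members. Rpl10 read 57.7 and 53.3 FPKM at 2 months and 77.6 and 90.5 at 4 months, and Rps4x read 246 and 223 and then 227 and 301 FPKM. The N101D library of 2 months also stood apart in its sex-linked transcripts. Xist, which is made from the inactive X chromosome of females, read 12.9 FPKM there and 0.0744 in WT at 2 months. Y-linked Ddx3y read 0.303 FPKM there and 5.51 to 10.03 in the other 3 libraries, and Eif2s3y 0.122 against 7.32 to 11.6. The sex of the animals is not in the labels, and at 2 months it cannot be told apart from the genotype, nor from age in N101D. Markers of tissue around the lens moved with that library too: the 6 pigment markers summed to 11.9 FPKM there and to 187 to 270.3 in the other 3, none of them at 0, and the part of these differences in the members' values was not tested.

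The starts of Rpl7a, Rps9, Rpl35, Rps7, Rpl34, Rpl12 and Rpl36a are shown as examples. In the RefSeq promoter table of the build GRCm38.p6, 56 of the 74 core members had a window. Shown here are the 20 bases before and the 20 bases from the annotated start of transcription on, 5' to 3' on the gene's strand, with the longest run of C and T in capitals, the letters that a TOP tract consists of. The members are ordered from the smallest to the largest difference at 4 months within those with long runs, then those with short ones. Members with a short run and a small difference at 4 months exist but are not shown, such as Rpsa (5 bases, -0.06) and Rplp0 (7 bases, -0.02).
Rpl7a, chr2:26910787-26910826, plus strand: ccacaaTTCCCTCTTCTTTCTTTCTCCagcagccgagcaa
Rps9, chr7:3704021-3704060, plus strand: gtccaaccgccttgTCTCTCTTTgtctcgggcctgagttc
Rpl35, chr2:39005112-39005151, minus strand: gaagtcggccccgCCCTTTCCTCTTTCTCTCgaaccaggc
Rpl34, chr3:130730379-130730418, minus strand: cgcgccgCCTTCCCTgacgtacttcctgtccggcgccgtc
Rpl36a, chrX:134585634-134585673, plus strand: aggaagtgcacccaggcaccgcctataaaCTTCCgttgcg
Rps7, chr12:28635934-28635973, minus strand: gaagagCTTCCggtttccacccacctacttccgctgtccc
Rpl12, chr2:32961692-32961731, plus strand: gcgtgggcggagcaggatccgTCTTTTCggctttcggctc

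A run of 8 or more pyrimidines stood in this window for 26 of the 56 core members (46.4%), beside 15.9% of 27025 promoters, and a run of 10 or more for 33.9%, beside 7.25%. The longest run was 21 bases, in Rpl7a. The 26 with a run of 8 or more had median differences of +0.23 at 2 months and -0.45 at 4 months, and the 30 with a shorter run +0.25 and -0.59. The windows shown include both long and short runs among the most different members, Rpl34 with 8 bases and Rps7 with 5. In both of these the run lies before the annotated start. An annotated start can lie some bases off the one used in the lens.

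In the full 300-base windows, from 250 bases before the start to 50 after it and searched on both strands, the ETS family core CCGGAAG stood in 39.3% of the 56 core members, beside 9.12% of all promoters. The SP and KLF family core GGGCGG stood in 58.9%, beside 35.9%, and AAGATGG, a YY1 core, in 14.3%, beside 6.48%. The TATA box letters TATAAA were the rarer among members, 8.93% beside 14.2%. Such matches are a description of the letters. Members with and without the ETS core had median differences of +0.25 and +0.24 at 2 months and -0.48 and -0.49 at 4 months, so this split did not separate them. With and without the SP and KLF core the medians at 4 months were -0.45 and -0.63.

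Of the 8 paralogs, 6 passed the level of 1 FPKM, with median differences of +0.27 at 2 months and -0.09 at 4 months, where 3 of the 6 were below 0. Rpl39l, a copy of Rpl39 that in mouse is made chiefly in the male germ line, read 2.26 FPKM in N101D at 2 months, 0.0223 in WT at 2 months, 0.0411 in N101D at 4 months and was listed at 0 in WT at 4 months. It passed the level only through the library in which it was high, which fixed its difference of +1.67 at 2 months. Its parent Rpl39 read 121 to 263 FPKM, so that even where Rpl39l was high it stood at 0.00858 of the parent. The coding sequences of the pair, from the GENCODE M21 annotation of GRCm38, are shown because the counting has to tell them apart; capitals mark the bases at which they differ, and the positions run over the introns between the coding exons, from start codon to stop codon.
Rpl39, chrX:37082701-37085127, minus strand: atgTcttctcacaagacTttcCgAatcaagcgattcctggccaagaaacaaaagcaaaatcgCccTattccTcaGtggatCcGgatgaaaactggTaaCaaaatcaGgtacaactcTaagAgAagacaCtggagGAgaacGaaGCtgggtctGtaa
Rpl39l, chr16:10174310-10174465, plus strand: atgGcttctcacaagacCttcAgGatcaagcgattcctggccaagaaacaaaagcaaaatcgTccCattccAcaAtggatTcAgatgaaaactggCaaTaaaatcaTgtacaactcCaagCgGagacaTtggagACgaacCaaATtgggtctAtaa

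Both run to 156 bases with the stop codon, and they differ at 23 bases, in 21 of 52 codons, which leaves 85.3% identical. The longest stretch that they share without a difference is 38 bases.

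Rps27l, a copy of Rps27 that p53 activates, stood above its parent in every library. Rps27l read 27.1 and 21.5 FPKM at 2 months, and 22.5 and 27.5 at 4 months. Rps27 read 13.1 and 8.40 FPKM at 2 months and 12.9 and 23.5 at 4 months. The ratio of copy to parent ran from 1.17 in WT at 4 months to 2.56 in WT at 2 months, and the copy varied less over the libraries than the parent did. The coding sequences of this pair are shown for the same reason, with differing bases in capitals.
Rps27, chr3:90212725-90213615, minus strand: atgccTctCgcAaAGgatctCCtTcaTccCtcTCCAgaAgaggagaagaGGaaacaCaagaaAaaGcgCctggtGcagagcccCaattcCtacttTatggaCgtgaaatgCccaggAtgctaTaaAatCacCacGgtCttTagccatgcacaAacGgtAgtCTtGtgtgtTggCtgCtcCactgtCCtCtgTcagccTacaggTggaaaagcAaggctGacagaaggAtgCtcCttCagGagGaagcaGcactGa
Rps27l, chr9:66946175-66949357, plus strand: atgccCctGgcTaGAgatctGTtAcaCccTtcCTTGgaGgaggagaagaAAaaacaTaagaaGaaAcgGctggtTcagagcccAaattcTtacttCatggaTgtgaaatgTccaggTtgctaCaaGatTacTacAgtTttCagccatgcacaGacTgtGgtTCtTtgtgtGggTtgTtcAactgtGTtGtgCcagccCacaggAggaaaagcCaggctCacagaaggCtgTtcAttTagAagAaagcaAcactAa

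Over 255 bases this pair differs at 61, in 54 of 85 codons, which leaves 76.1% identical, and the longest shared stretch is 11 bases. Rpl36al, an autosomal copy of X-linked Rpl36a, stood above its parent as well, by 5.71 to 10.1 times. Rpl36al read 99.1 and 85.4 FPKM at 2 months and 85.6 and 96.9 at 4 months, while Rpl36a read 14.3 and 8.43 and then 9.05 and 16.96. The parent differed by -0.84 at 4 months and the copy by -0.18.

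Rpl22l1, which in mouse is made in larger amount when Rpl22 is lost, read 44.6 and 26.2 FPKM at 2 months and 25.9 and 36.7 at 4 months. A second row of Rpl22l1 on the same span, left out of these values, read 13.8 and 11.3 FPKM and then 8.53 and 12.1. Rpl22, an RNA-binding protein at the tunnel mouth, read 85.6 and 65.6 FPKM at 2 months and 63.0 and 78.1 at 4 months. Copy and parent had the same direction at each age, and the copy stood at 0.399 to 0.521 of the parent. Rpl7l1, a copy of Rpl7 known from ribosome assembly, lay between 7.46 and 7.91 FPKM in all 4 libraries, the most even of the 80 members by the ratio of highest to lowest level, 1.06. Rps4y2 read 6.94 and 7.74 FPKM at 2 months and 10.8 and 7.71 at 4 months, on an mm9 span of chromosome 6 from 147995937 to 148392874 that several other genes share, so this value may hold their reads. Rpl10l and Rpl3l, which in mouse serve the male germ line and striated muscle, stayed at or below 0.0697 and 0.252 FPKM in every library.

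**Figure D3:**
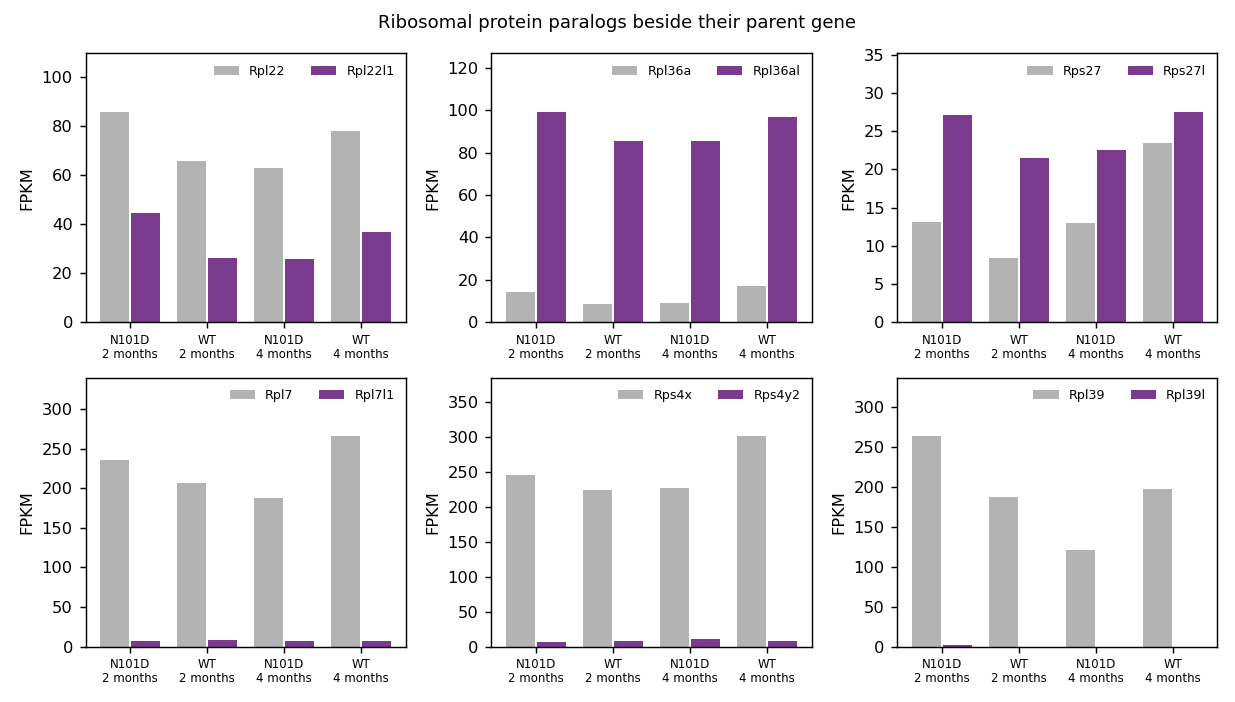
FPKM of 6 paralogs (purple) and their parent genes (grey) in the 4 lens libraries, 1 bar a library, axes from 0 and scaled for each pair. Rpl36al and Rps27l stand above their parents in every library, Rpl22l1 below its parent, and Rpl7l1, Rps4y2 and Rpl39l at 0.0475 of the parent or less.

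Genes that work with the ribosome were read beside the members. The 75 mitochondrial ribosomal protein genes, which serve the separate ribosome of mitochondria, had a median difference of -0.04 at 2 months and of -0.07 at 4 months. Of these, 25 (33.3%) were higher in N101D at 2 months and lower at 4 months, against 66 of the 80 cytosolic members. Of the 43 ribosome assembly genes, 17 were above 0 at 2 months and 14 at 4 months, with medians of -0.12 and -0.07. Wdr12, a 60S assembly factor, had the largest difference of them, -1.22 at 4 months. WT stood there at 3.47 FPKM, against 0.922 for N101D. No other library took Wdr12 to 1 FPKM, so the filter fixed the direction of this difference. Ncl, the main nucleolar RNA-binding protein, read 58.6 and 85.6 FPKM at 2 months and 101.3 and 113 at 4 months. Of the assembly genes, 16 (37.2%) were higher in N101D at 2 months and lower at 4 months.

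Other mRNAs known to carry a TOP tract lay in between at 4 months. Of 19 such genes, 17 were below 0 at 4 months with a median of -0.19, and at 2 months 10 were above 0 with a median of +0.01. From 2 to 4 months in WT, 18 of the 19 were higher, with a median of +0.50. In N101D 13 of the 19 were higher at 4 months, with a median of +0.32, where the members' median was -0.12 and that of all genes +0.15. Gas5, a noncoding host RNA of snoRNAs with a TOP tract, read 510.1 and 355 FPKM at 2 months and 392 and 589.7 at 4 months, differences of +0.52 and -0.59. Eif3e, a subunit of initiation factor 3, read 24.7 and 18.6 FPKM and then 19.4 and 27.7, and Btf3 differed by -0.53 at 4 months. Eef1b2, an exchange factor of elongation, read 83.0 and 107 FPKM and then 155 and 194, below WT at both ages. A list of mTOR and MYC pathway regulators, which also holds the p53 pathway genes Mdm2, Mdm4 and Trp53, had 20 genes read. Of the 20, 14 (70%) were below 0 at 2 months, beside 64.3% of all genes. At 4 months 15 (75%) were above 0, beside 55.3%. Their medians were -0.10 and +0.12 against -0.09 and +0.03 for all genes. The largest differences of the list at 4 months were those of Mdm4 and Trp53, at +0.80 and +0.79. Mtor itself read 27.7 and 26.0 FPKM at 2 months and 27.2 and 19.1 at 4 months.

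**Figure D4:**
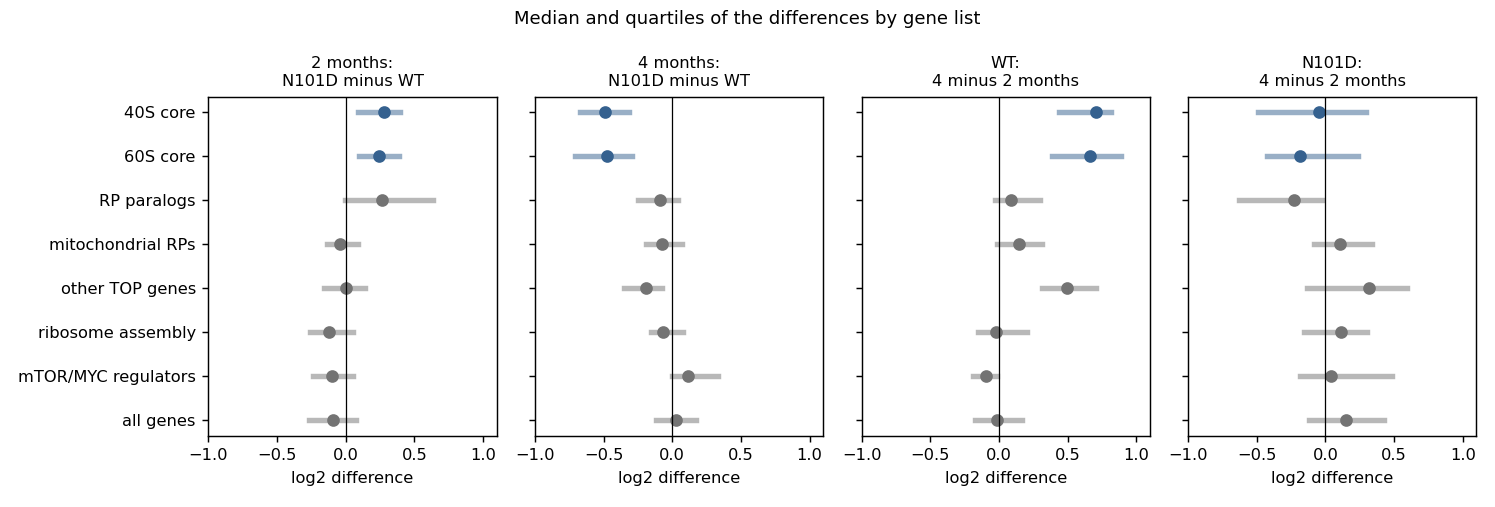
Median (point) and quartiles (bar) of the log2 differences of 8 gene lists in 4 comparisons, 1 library against 1 library each. The list marked mTOR/MYC regulators also holds Mdm2, Mdm4 and Trp53. On the deposited scale the core ribosomal protein genes of both subunits lie above all genes at 2 months, with medians of +0.28 and +0.25, below them at 4 months, with -0.49 and -0.47, and highest of all lists in WT from 2 to 4 months.

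Transcript length and base composition varied with the differences over all genes. The core members are short, with a median length of 882.5 bases against 3054.5 for all genes, and their median GC content was 51.7% against 50.4%. Over all genes the difference at 4 months went with GC content (Spearman 0.33, 10604 genes) and with length (0.20). Other genes of up to 600 bases had a median difference of +0.06 at 2 months and of -0.16 at 4 months, against +0.37 and -0.61 for the 17 core members of that length. With the trend on GC and length over all genes taken off, an alternative chosen after seeing the data, the members' medians were +0.21 at 2 months and -0.36 at 4 months.

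The additive limma fit on log2(FPKM + 1), with age and genotype as terms over all 4 libraries, asked whether a genotype difference held over both ages. It has 1 residual degree of freedom, so that the 2 ages serve as the replicates. At an adjusted p under 0.05 (Benjamini-Hochberg) it called 0 of 11264 genes and 0 of the 80 members, and the lowest adjusted p of a member was 0.99997. At an unadjusted p under 0.05 it had 118 genes (1.05%) and no member, whose lowest unadjusted p in the limma fit was 0.0826. The members' median genotype term was -0.11, with 21 above 0 and 59 below 0. A difference that turns round between the ages cancels in this term, so the fit bears on a shared difference and not on either age.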

How the data were processed

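Total RNA from mouse lenses was made into TruSeq libraries, per the labels' protocols. The authors deposited 1 table of FPKM per library, and per the submitters' processing notes CASAVA 1, TopHat 1.2.0, Cufflinks 1.0.3 and Cuffdiff were used with the build mm9. The Cuffdiff version, the annotation and the settings are not given in the sources used here. A table holds 44597 rows. Status codes matched between the genotypes within an age and differed between ages for 2788 rows, so the ages look separately estimated. Rows marked FAIL (289 and 488 at the 2 ages) were taken as missing. A table runs through each chromosome 3 times; the rows of the third run (20744) were set aside, which changed no member's row.

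From these values log2(FPKM + 1) was computed for the 11311 symbols at 1 FPKM or more in at least 1 library, 2-fold meaning 1 on that scale. limma 3.58.1 in R 4.3.3 gave the only test; no test was made across ages or within one. Members and gene lists were chosen with earlier results of these data known. Named are the 5 highest and lowest members by level and by difference at each age, the paralogs, the members of the structural lists and the 3 most different genes of each companion list; others were named after their values were seen. Alternatives were another pseudocount, filters, 3 scalings, summed rows, status, subsets of members and a GC and length trend. The calculations were tested on simulated data. The limma p-values set the genotype term against its change between the 2 ages, with a variance drawn in part from all genes. The sources of the libraries are not described, so these p-values do not measure the spread between animals. Figures were drawn with matplotlib 3.10.9 under Python 3.11.15. A few genes are not reported here.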

Additional observations from a re-analysis of the deposited data

How the results depend on the processing

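At 4 months and in WT from 2 to 4 months the members' medians kept their direction under every alternative run. No member's difference of 2-fold or more changed sign. At 2 months smaller ones did under equal totals without crystallins, where 67 of 80 members were below 0, beside 95.5% of all genes. Scaling to equal totals without crystallins turned the median at 2 months to -0.20 and that of N101D from 2 to 4 months to +0.36, with all genes at -0.46 and +0.51; equal upper quartiles gave +0.37 and -0.26. Relative to the median of all genes, a measure added after seeing the data, the members stood at +0.17 at 2 months under quantile normalization and at +0.22 with the GC and length trend taken off, which gave -0.36 at 4 months and +0.56 in WT between the ages. In N101D between the ages that measure was -0.13 without a filter, -0.16 with equal totals, -0.045 with quantile normalization and -0.14 with the trend taken off. Of the 2 members at least 2-fold higher at 2 months, 1 was left with a filter of 5 FPKM and without the paralogs. With the trend taken off 1 was left too. With equal totals the 1 left was Rpl39l, whose difference the filter fixed, and Rps29 was under 2-fold. Among rows of status OK at both ages 0 were left. Of the 2 at least 2-fold lower at 4 months, 1 was left with quantile normalization and with the trend taken off. It was 1 as well among the 49 members whose span holds no other symbol, and 0 among rows of status OK at both ages. The cause of these moves was not tested, apart from the paralogs and rows that were left out by construction. The Spearman correlation over members between the ages ran from -0.53 to -0.39. limma called 0 members in every alternative, and 61 genes with equal totals against 0 otherwise. No paired analysis was possible because each group has 1 library and the labels give no replicate numbers; leaving out a library was not possible either, since the fit would have no residual degrees of freedom.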
